A study of Homo sapiens with 21 samples.

Results

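BT-TPR1 and BT-TPR2 are pools of BT474 cells that are resistant to trastuzumab plus pertuzumab, and their transcripts were compared with those of sensitive BT474 cells that had met both antibodies for 3 days. BT474 is a human breast cancer line with amplified ERBB2, the gene of the receptor HER2. Of the 21 RNA-seq libraries in the series, 9 enter the comparison, chosen by their labels: 3 of BT-TPR1, 3 of BT-TPR2 and 3 of BT474 cells given 10 µg/mL trastuzumab and 10 µg/mL pertuzumab, here called dual-treated cells. Before harvest both pools had been without treatment for 7 days. Libraries were made from total RNA of dishes grown to the same stated confluence, and the values are read counts per gene scaled to the normalized library size (CPM, counts scaled to a common library size).

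Trastuzumab and pertuzumab bind different parts of the extracellular region of HER2, and pertuzumab blocks its pairing with HER3. HER2 pairs signal through PI3-kinase and AKT, which keep FOXO transcription factors out of the nucleus, and through RAS and ERK, which drive immediate early genes and their own feedback inhibitors. In sensitive cells, blockade of the receptor slows passage through the cell cycle. Resistant cells were harvested without antibody and the sensitive cells with it, so resistance and the absence of antibody cannot be told apart in these fold changes. Mean levels in untreated BT474 cells, which do not enter the comparison, are therefore given beside some results. There were 2 pools, and the 3 libraries of a pool are not separate pools. The labels do not say whether the libraries of a group came from separate cultures, so each p measures only the spread between these libraries. In bulk RNA, fewer cells with a transcript and less of it per cell cannot be told apart.

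Library totals ran from 14122216 to 16737677 counts in BT-TPR1, from 15880398 to 19559313 in BT-TPR2 and from 19324898 to 20471764 in dual-treated cells, and 17650 of 37355 genes had enough counts to be tested. The label of a HER2-positive breast cancer line held in all 9 libraries, with ERBB2 at 4388 to 9278 CPM, KRT8 at 526 to 1308 CPM and CDH1 at 1141 to 1590.0 CPM. Markers of other cell types differed in level. None of the 6 measured T cell markers passed the filter and their summed level stayed at or below 0.564 CPM in every library, while the 7 macrophage markers summed to 0.256 to 0.503 CPM in BT-TPR1, 0.376 to 0.872 CPM in BT-TPR2 and 0.938 to 1.153 CPM in dual-treated cells. Of 9 fibroblast and 9 endothelial markers measured, 2 and 4 were tested, and 1 of these, ESAM, fell in both pools. The fibroblast markers summed to 29.5 to 53.2 CPM in BT-TPR1, 34.5 to 63.1 CPM in BT-TPR2 and 29.4 to 49.4 CPM in dual-treated cells. Basal or myoepithelial markers summed to 163 to 213 CPM in BT-TPR1, 216 to 308 CPM in BT-TPR2 and 167 to 202 CPM in dual-treated cells, and 2 of the 8 tested fell in both pools. Of 4 tested adipocyte markers, LPL and PLIN1 fell and PPARG rose in both, and their part in the results was not tested. Replicate 1 stood apart in each group. Across genes, which are not replicates, its r with the others was at most 0.9893 in BT-TPR1, 0.9859 in BT-TPR2 and 0.9915 in dual-treated cells. Replicates 2 and 3 had r of 0.9955, 0.9955 and 0.9948 with each other, in that order. The log2 deviation of replicate 1 from the group mean went with GC content (r = 0.586 in BT-TPR1, 0.618 in BT-TPR2 and 0.395 in dual-treated cells, against -0.52 to 0.083 in the other libraries). In dual-treated cells replicate 3 went with GC content more strongly, in the other direction (r = -0.515). Transcripts of the mitochondrial genome made up 13.7% to 17.8% of counts in BT-TPR1, 14.4% to 20.8% in BT-TPR2 and 20.2% to 29.8% in dual-treated cells.

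Promoters are shown first for genes of 2 lists. Genes of mitosis form the group with the highest share of shared rises. Of 31 tested FOXO targets and other genes repressed through PI3-kinase, 11 fell in both pools and 2 rose. Of all tested genes, 9.93% fell and 8.46% rose in both pools. Each promoter runs from 250 bases before to 50 bases after the RefSeq start of the gene (GRCh38.p14), 5′ to 3′ on the gene's strand. In the first 3, capitals mark TTTGAA, the core of the cell cycle homology region, and CCAAT, the CCAAT box, on either strand. PIF1 encodes a DNA helicase, PLK1 a kinase of mitotic entry and PTTG1 the separase inhibitor securin. In the fourth, capitals mark GTAAACA, the core bound by forkhead factors such as FOXO. C10orf10, now named DEPP1, is a known FOXO target.
PIF1, chr15:64825598-64825897, minus strand: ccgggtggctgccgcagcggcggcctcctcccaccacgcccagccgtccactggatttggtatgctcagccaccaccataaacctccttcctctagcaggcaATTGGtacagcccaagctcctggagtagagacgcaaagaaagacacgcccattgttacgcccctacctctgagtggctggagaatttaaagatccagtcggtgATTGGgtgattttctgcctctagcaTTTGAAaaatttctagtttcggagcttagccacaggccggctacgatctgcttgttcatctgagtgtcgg
PLK1, chr16:23678639-23678938, plus strand: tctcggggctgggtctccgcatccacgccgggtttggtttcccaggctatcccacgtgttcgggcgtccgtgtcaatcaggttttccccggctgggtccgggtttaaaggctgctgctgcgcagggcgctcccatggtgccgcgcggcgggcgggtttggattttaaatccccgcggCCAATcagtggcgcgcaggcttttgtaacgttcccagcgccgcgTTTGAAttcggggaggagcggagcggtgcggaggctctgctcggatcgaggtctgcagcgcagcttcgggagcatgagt
PTTG1, chr5:160421605-160421904, plus strand: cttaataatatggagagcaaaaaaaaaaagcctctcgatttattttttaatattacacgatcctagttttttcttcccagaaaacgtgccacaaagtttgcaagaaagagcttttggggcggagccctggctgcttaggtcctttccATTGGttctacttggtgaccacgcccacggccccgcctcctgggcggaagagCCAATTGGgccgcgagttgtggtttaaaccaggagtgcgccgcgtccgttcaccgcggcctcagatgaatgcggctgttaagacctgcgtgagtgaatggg
C10orf10, chr10:44978760-44979059, minus strand: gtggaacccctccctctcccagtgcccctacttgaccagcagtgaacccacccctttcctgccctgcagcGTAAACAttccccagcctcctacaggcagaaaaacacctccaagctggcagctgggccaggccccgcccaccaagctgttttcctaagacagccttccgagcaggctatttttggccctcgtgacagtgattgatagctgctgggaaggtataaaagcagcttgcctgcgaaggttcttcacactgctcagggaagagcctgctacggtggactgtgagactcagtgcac

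PIF1 held 1 TTTGAA and 2 CCAAT boxes, PLK1 held 1 of each, and PTTG1 held 3 CCAAT boxes, of which a pair overlaps on opposite strands, and no TTTGAA. Of the 47 tested genes on a list of mitosis genes, 40 matched a RefSeq promoter. TTTGAA stood in 28 of them (70.0%), against 15.4% of all 27305 promoters of this length, and CCAAT in 28 (70.0%), against 35.7%. Both were present in 21 (52.5%), against 6.08% of all promoters. GTAAACA stood in 6 of 28 matched promoters of the FOXO list (21.4%), against 3.41% of all promoters. Among the FOXO-list genes ranked highest by their shared change, C10orf10 held 1 site, and PIK3IP1, KLF15 and IRS2 held none. The set of all promoters was not limited to tested genes, so it is an unlike background for these lists. The FOXO list also holds known FOXO targets. These are matches of letters in a window and are given as a description.

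Both pools differed widely from dual-treated cells, and few genes passed in opposite directions. With edgeR's quasi-likelihood test across all tested genes and a Benjamini-Hochberg adjusted p under 0.05 as the threshold, 4568 genes (25.9% of those tested) passed in BT-TPR1, of which 2098 rose (11.9%) and 2470 fell (14%). In BT-TPR2, 4964 genes passed (28.1%), of which 2394 rose (13.6%) and 2570 fell (14.6%). Both comparisons use the same 3 dual-treated libraries, so a deviation in these libraries moves both. The same direction was called in both pools for 3247 genes (18.4%), 1494 of them higher (8.46%) and 1753 lower (9.93%), and 18 genes (0.102%) passed in opposite directions. For 4977 genes (28.2%) both pools lay on the same side of dual-treated cells with no overlap of libraries. Another 1302 genes passed in BT-TPR1 alone and 1697 in BT-TPR2 alone, which does not show that the pools differed in them. The direct test of BT-TPR2 against BT-TPR1 called 609 genes (3.45%), 289 higher in BT-TPR2 (1.64%) and 320 lower (1.81%). With replicate number as a block, the counts were 2836 shared rises, 2778 shared falls, 56 opposite calls and 2119 genes between the pools.

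Large changes were more often falls than rises. Taking for each gene the smaller of its 2 changes, 663 of the shared falls and 362 of the shared rises were at least 2-fold, and 151 and 81 were at least 4-fold. The median of this smaller change was 0.82 for falls and 0.63 for rises on the log2 scale. Over all tested genes the median change was 0.03 in BT-TPR1 and 0.02 in BT-TPR2. Fold changes below are log2 values of a pool over dual-treated cells, with standard errors, and adjusted p-values come from the same edgeR test. Counts of list members below stand beside the 8.46% of all tested genes that rose in both pools and the 9.93% that fell.

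PPP1R1B, which lies beside ERBB2 (ENSG00000131771.13, chromosome 17, 39626740 to 39636626, hg38), headed the shared rises among the genes at or above a mean of 5 CPM. The gene encodes the phosphatase inhibitor DARPP-32 and its truncated form t-DARPP, which counts per gene do not separate. It stood at 101, 92.9 and 95.5 CPM in BT-TPR1, 71.4, 83.5 and 82.6 CPM in BT-TPR2, and 3.85, 3.31 and 3.16 CPM in dual-treated cells. Every library of both pools lay far above every dual-treated library. The changes were 4.81 ± 0.17 in BT-TPR1 and 4.52 ± 0.17 in BT-TPR2 (adjusted p = 4.48e-13 and 1.15e-12). Untreated cells had 2.26 ± 0.325 CPM (SD, n = 3).

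The other leading rises included S100A4, MUC5AC and SCGB2A2. S100A4, a calcium-binding protein associated with motility (ENSG00000196154.11, chromosome 1, 153543613 to 153550136), stood at 32.4, 28.1 and 29.3 CPM in BT-TPR1, 32.8, 30.1 and 29.6 CPM in BT-TPR2, and 2.31, 2.52 and 2.34 CPM in dual-treated cells. The pools were nearly equal to each other and did not overlap with dual-treated cells, with changes of 3.64 ± 0.20 in BT-TPR1 and 3.69 ± 0.20 in BT-TPR2 (adjusted p = 1.65e-10 and 1.22e-10). MUC5AC, a gel-forming mucin (ENSG00000215182.8, chromosome 11, 1157953 to 1201138), stood at 13.7, 10.8 and 16.4 CPM in BT-TPR1, 4.89, 3.67 and 3.45 CPM in BT-TPR2, and 0.275, 0.148 and 0.243 CPM in dual-treated cells. It was close to absent from dual-treated cells, present in BT-TPR2 and higher again in BT-TPR1, with changes of 5.91 ± 0.39 in BT-TPR1 and 4.14 ± 0.41 in BT-TPR2 (adjusted p = 2.88e-09 and 4.36e-07). SCGB2A2, which encodes mammaglobin A, a secreted protein of breast epithelium (ENSG00000110484.6, chromosome 11, 62270155 to 62273156), stood at 472, 535 and 479 CPM in BT-TPR1, 109, 102 and 116 CPM in BT-TPR2, and 27.2, 22.9 and 20.1 CPM in dual-treated cells. All 3 groups were separate, and the changes were 4.40 ± 0.15 in BT-TPR1 and 2.22 ± 0.14 in BT-TPR2 (adjusted p = 4.48e-13 and 1.17e-09).

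Metabolic, stress and regulatory genes made up the remaining leading rises. ASS1, argininosuccinate synthase of the arginine synthesis pathway (ENSG00000130707.17, chromosome 9, 130444929 to 130501274), stood at 14.6, 12.1 and 11.8 CPM in BT-TPR1, 27.7, 25.5 and 23.7 CPM in BT-TPR2, and 1.81, 1.68 and 1.41 CPM in dual-treated cells. BT-TPR2 was highest, BT-TPR1 lower and dual-treated cells lowest, without overlap, with changes of 2.97 ± 0.19 in BT-TPR1 and 3.97 ± 0.19 in BT-TPR2 (adjusted p = 1.29e-09 and 2.58e-11). Its processed pseudogene ASS1P11 changed by 2.76 and 3.78, but its counts may hold reads of ASS1 and are uncertain. BHLHE41, a repressor in the circadian clock, stood at 22.1, 26.7 and 25.5 CPM in BT-TPR1, 30.6, 33.5 and 35.4 CPM in BT-TPR2, and 5.33, 5.09 and 5.11 CPM in dual-treated cells. The groups did not overlap, and the changes were 2.26 ± 0.14 in BT-TPR1 and 2.68 ± 0.14 in BT-TPR2 (adjusted p = 9.27e-10 and 9.63e-11). The corepressor gene RCOR2 changed by 2.92 and 2.92, NOD2, a sensor of bacterial cell wall fragments, by 2.17 and 2.12, the UDP receptor gene P2RY6 by 2.12 and 2.60 and the small heat shock protein gene HSPB1 by 2.51 and 2.12, in BT-TPR1 and BT-TPR2 in that order. In all 11 leading rises reported here the untreated mean lay below both pool means, and in 8 of the 11 it lay above the dual-treated mean. These genes were chosen for their distance from dual-treated cells and for having no overlap with them. The lack of overlap is therefore set by the choice, and the position of the untreated mean partly so.

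The leading shared falls included receptors, cytokines and secreted proteins. P2RY10, a G protein-coupled receptor gene (ENSG00000078589.12, chromosome X, 78945332 to 78961954), stood at 1.32, 0.755 and 1.86 CPM in BT-TPR1, 1.45, 1.30 and 1.44 CPM in BT-TPR2, and 40.1, 34.1 and 35.2 CPM in dual-treated cells. All 6 pool libraries were below 2 CPM, and the changes were -4.79 ± 0.21 in BT-TPR1 and -4.70 ± 0.21 in BT-TPR2 (adjusted p = 1.23e-11 and 9.05e-12). TNFSF15, a cytokine of the tumour necrosis factor family (ENSG00000181634.7, chromosome 9, 114784635 to 114806126), stood at 6.90, 7.36 and 6.66 CPM in BT-TPR1, 5.35, 4.42 and 6.02 CPM in BT-TPR2, and 104, 92.3 and 128 CPM in dual-treated cells. Both pools lay far below dual-treated cells, with changes of -3.95 ± 0.18 in BT-TPR1 and -4.37 ± 0.18 in BT-TPR2 (adjusted p = 1.23e-11 and 5.94e-12). IGFBP3, a binding protein of insulin-like growth factors, stood at 4.43, 3.71 and 4.17 CPM in BT-TPR1, 5.99, 5.07 and 5.33 CPM in BT-TPR2, and 34.4, 36.97 and 47.02 CPM in dual-treated cells. No pool library came near the lowest dual-treated library, and the changes were -3.26 ± 0.15 in BT-TPR1 and -2.85 ± 0.14 in BT-TPR2 (adjusted p = 1.86e-11 and 5.91e-11).

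VIM, ANTXR1 and FSTL1 were also among the leading falls. VIM, the intermediate filament protein vimentin (ENSG00000026025.13, chromosome 10, 17228259 to 17237593), stood at 2.36, 1.26 and 1.79 CPM in BT-TPR1, 2.38, 2.46 and 2.63 CPM in BT-TPR2, and 21.8, 20.3 and 25.3 CPM in dual-treated cells. Both pools were low in every library, with changes of -3.63 ± 0.18 in BT-TPR1 and -3.17 ± 0.17 in BT-TPR2 (adjusted p = 4.66e-11 and 1.68e-10). ANTXR1, a collagen-binding surface receptor also used by anthrax toxin, stood at 9.83, 8.30 and 12.1 CPM in BT-TPR1, 9.60, 8.51 and 11.3 CPM in BT-TPR2, and 108, 90.8 and 102 CPM in dual-treated cells. The pools overlapped with each other and were separate from dual-treated cells, with changes of -3.32 ± 0.15 in BT-TPR1 and -3.36 ± 0.15 in BT-TPR2 (adjusted p = 1.23e-11 and 9.05e-12). FSTL1, a secreted glycoprotein, stood at 6.90, 6.48 and 8.59 CPM in BT-TPR1, 11.8, 7.77 and 12.03 CPM in BT-TPR2, and 87.6, 74.7 and 90.2 CPM in dual-treated cells. The pools overlapped with each other and not with dual-treated cells, and the changes were -3.52 ± 0.17 in BT-TPR1 and -3.00 ± 0.16 in BT-TPR2 (adjusted p = 2.56e-11 and 1.22e-10).

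The other leading falls were the ferric reductase gene CYBRD1 (-3.63 and -3.13, in BT-TPR1 and BT-TPR2 in that order, here and for the genes that follow), the transporter gene ABCA4 (-4.33 and -3.52), SHISA2, which acts on Wnt and FGF receptors (-4.12 and -3.09), the lipoprotein receptor-related gene LRP1B (-3.01 and -3.49), the mechanosensitive channel gene PIEZO2 (-3.61 and -2.91) and the alpha-tubulin gene TUBA1A (-2.88 and -3.21). TUBA1A has near-identical paralogs, so its counts are uncertain. In all 12 leading falls the untreated mean lay above both pool means, and in 10 of the 12 it lay below the dual-treated mean. The falls were chosen in the same way as the rises, and no such count was made over all genes. The calls of these 23 leading genes in both pools held under every alternative tried.

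**Figure D1:**
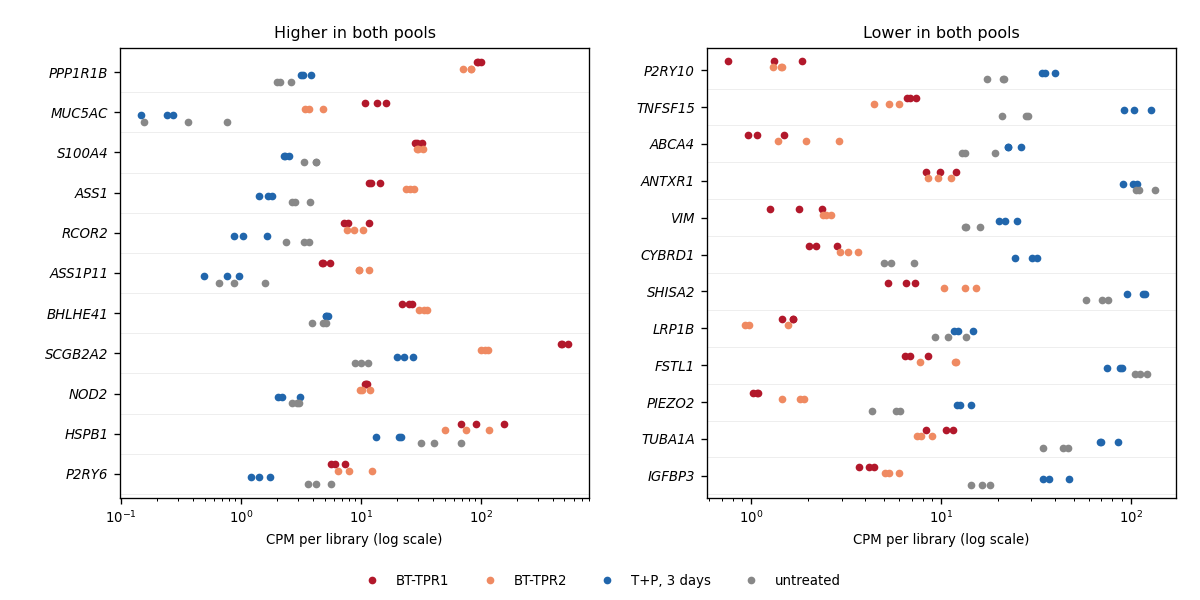
CPM on a log axis in each library for the 11 leading shared rises reported here (left) and 12 leading shared falls (right), 3 points per group, in BT-TPR1, BT-TPR2, dual-treated cells (T+P, 3 days) and untreated cells. In every gene the 6 pool libraries lie on one side of the 3 dual-treated libraries, which was a condition for choosing the genes. PPP1R1B stood at 101, 92.9 and 95.5 CPM in BT-TPR1 and at 3.85, 3.31 and 3.16 CPM in dual-treated cells.

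Most genes of mitosis were higher in both pools than in dual-treated cells. Of 47 tested members, 41 rose in both pools, 45 rose in BT-TPR2 and none fell, with median changes of 0.91 in BT-TPR1 and 0.99 in BT-TPR2. PLK1 stood at 58.8, 43.5 and 46.9 CPM in BT-TPR1, 53.9, 52.3 and 49.5 CPM in BT-TPR2, and 17.5, 14.6 and 12.3 CPM in dual-treated cells. Every pool library lay well above every dual-treated one, and the changes were 1.75 ± 0.20 in BT-TPR1 and 1.81 ± 0.20 in BT-TPR2 (adjusted p = 2.25e-06 and 1.09e-06). AURKA, a kinase of the spindle poles, stood at 281, 331 and 319 CPM in BT-TPR1, 318, 386 and 422 CPM in BT-TPR2, and 104, 101 and 102 CPM in dual-treated cells. Dual-treated libraries were tightly grouped and well below both pools, with changes of 1.60 ± 0.11 in BT-TPR1 and 1.87 ± 0.11 in BT-TPR2 (adjusted p = 4.01e-09 and 4.4e-10). PIF1 changed by 2.00 and 2.23 and PTTG1 by 1.63 and 2.17. MKI67, the Ki-67 proliferation marker, stood at 115, 132 and 150.1 CPM in BT-TPR1, 114, 146 and 146 CPM in BT-TPR2, and 65.9, 76.3 and 78.8 CPM in dual-treated cells, and changed by 0.85 ± 0.21 in BT-TPR1 and 0.88 ± 0.21 in BT-TPR2 (adjusted p = 0.0053 and 0.00346). The 6 members not called in both pools were AURKB, KIF11, KIF15, MAD2L1, NUSAP1 and SMC4.

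Genes of DNA replication had few shared calls. Of 42 tested members, 2 rose and 1 fell in both pools (4 and 4 with the replicate block), with medians of 0.07 in BT-TPR1 and 0.04 in BT-TPR2. RFC4, a clamp loader subunit, changed by 0.61 ± 0.11 in BT-TPR1 and 0.68 ± 0.11 in BT-TPR2 (adjusted p = 0.000294 and 8.46e-05). FEN1, a flap endonuclease, changed by -0.44 ± 0.12 in BT-TPR1 and -0.43 ± 0.12 in BT-TPR2 (adjusted p = 0.00913 and 0.0089), a call that ended in both pools without dual-treated replicate 1 (adjusted p = 0.064 and 0.0567). Against untreated cells, 4 mitosis genes rose and 5 fell in BT-TPR1, 7 rose and 1 fell in BT-TPR2, and 45 of 47 fell in dual-treated cells. Of all tested genes, 12.9% rose and 14.4% fell in BT-TPR1, 15.6% rose and 16% fell in BT-TPR2, and 6.39% rose and 6.02% fell in dual-treated cells, each against untreated cells. DNA replication genes fell against untreated cells in 15 cases in BT-TPR1, 17 in BT-TPR2 and 9 in dual-treated cells.

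Replication-dependent histone genes rose in both pools in 10 of 20 tested cases and fell in none, with medians of 1.17 in BT-TPR1 and 1.02 in BT-TPR2. Members not called in both pools were HIST1H1B, HIST1H1D, HIST1H1E, HIST1H2BC, HIST1H3B, HIST1H4B, HIST1H4C, HIST1H4E, HIST1H4H and HIST4H4. HIST1H1C, a linker histone, stood at 17.9, 17.2 and 14.8 CPM in BT-TPR1, 16.9, 20.3 and 16.3 CPM in BT-TPR2, and 5.17, 5.29 and 5.79 CPM in dual-treated cells. Pool libraries did not overlap with dual-treated ones, with changes of 1.62 ± 0.20 in BT-TPR1 and 1.72 ± 0.20 in BT-TPR2 (adjusted p = 9.55e-06 and 3.58e-06). HIST1H2BJ changed by 1.99 and 2.22. Histone genes are near-identical copies that can share reads, so single members are uncertain.

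Several p53 targets were lower in the pools. Of 24 tested p53 targets, 11 fell in both pools and none rose in both, with medians of -0.44 in BT-TPR1 and -0.43 in BT-TPR2. CDKN1A, the inhibitor p21 (ENSG00000124762.13, chromosome 6, 36676460 to 36687339), stood at 6.32, 5.73 and 5.89 CPM in BT-TPR1, 5.93, 6.42 and 6.14 CPM in BT-TPR2, and 18.3, 14.9 and 18.7 CPM in dual-treated cells. The pools overlapped with each other, lay near the untreated mean of 5.97 ± 2.53 CPM (SD, n = 3) and were below every dual-treated library, and the changes were -1.53 ± 0.27 in BT-TPR1 and -1.49 ± 0.27 in BT-TPR2 (adjusted p = 0.000367 and 0.000381). AEN, an apoptosis-enhancing nuclease, changed by -1.38 ± 0.24 in BT-TPR1 and -1.20 ± 0.24 in BT-TPR2 (adjusted p = 0.000275 and 0.000775). FAS, the death receptor, had few or no reads in the pools and stood at 0.115, 0.0629 and 0 CPM in BT-TPR1, 0, 0.0465 and 0.0627 CPM in BT-TPR2, and 1.65, 0.939 and 2.53 CPM in dual-treated cells. Other members that fell were MDM2, SESN1, SESN2, TNFRSF10B, TP53I3, TP53INP1, FAM84B and PLK3. PLK3, a stress-responsive kinase, lost its call in both pools without dual-treated replicate 1 (adjusted p = 0.0597 in BT-TPR1 and 0.0728 in BT-TPR2). Of 16 cyclins, CDKs and inhibitors of G1, CDKN1A, CCND1 and CDKN2A fell in both pools, and the INK4 inhibitor genes CDKN2C (0.54 and 0.61) and CDKN2D (0.49 and 0.70) rose. The CDKN2A call in BT-TPR2 ended under 11 alternatives, DESeq2 among them (adjusted p = 0.0553 to 0.164), and the CDKN2D call in BT-TPR1 ended under 8 (adjusted p = 0.0521 to 0.138). The list had 1 shared fall with library size alone, without a filter and without BT-TPR1 replicate 2 or 3 or dual-treated replicate 3, and there were 5 falls with the replicate block.

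Of 31 tested targets of FOXO factors and other genes repressed by PI3-kinase signalling, 11 fell in both pools and 2 rose. The medians were -0.28 in BT-TPR1 and -0.24 in BT-TPR2. Against untreated cells, 13 of the 31 rose and 2 fell in dual-treated cells, where 6.39% and 6.02% of all tested genes did. In the pools, 6 rose and 3 fell in BT-TPR1, and 6 rose and 4 fell in BT-TPR2, each against untreated cells. C10orf10, whose promoter is printed above, stood at 1.32, 1.07 and 0.897 CPM in BT-TPR1, 1.86, 2.23 and 1.94 CPM in BT-TPR2, and 9.12, 8.95 and 12.3 CPM in dual-treated cells. Both pools were well below dual-treated cells and above the untreated mean of 0.636 ± 0.0593 CPM (SD, n = 3), with changes of -3.19 ± 0.18 in BT-TPR1 and -2.32 ± 0.16 in BT-TPR2 (adjusted p = 2.31e-10 and 5.05e-09). PIK3IP1, a negative regulator of PI3-kinase, stood at 20.7, 13.2 and 19.99 CPM in BT-TPR1, 23.7, 15.8 and 16.7 CPM in BT-TPR2, and 83.8, 66.04 and 68.2 CPM in dual-treated cells. The pools overlapped with each other and lay below dual-treated cells, with changes of -2.02 ± 0.18 in BT-TPR1 and -1.96 ± 0.18 in BT-TPR2 (adjusted p = 2.12e-07 and 1.85e-07). IRS2, the insulin receptor substrate, changed by -2.21 ± 0.21 in BT-TPR1 and -1.46 ± 0.20 in BT-TPR2 (adjusted p = 4.52e-07 and 1.97e-05), and INSR, the insulin receptor, by -0.85 ± 0.18 in BT-TPR1 and -0.90 ± 0.18 in BT-TPR2 (adjusted p = 0.00202 and 0.000968). FOXO1, FOXO4, IGF1R, CCNG2, SESN1, YPEL3 and KLF15 were the other members that fell. The 2 that rose were SESN3 and BCL2L11, and the BCL2L11 call in BT-TPR2 ended under 13 alternatives.

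The core of the PI3-kinase and AKT pathway had 3 shared falls and 1 shared rise among 18 tested genes, against 9.93% and 8.46% of all tested genes. PIK3R1, the p85-alpha regulatory subunit, stood at 46.6, 47.1 and 46.8 CPM in BT-TPR1, 22.1, 25.02 and 28.01 CPM in BT-TPR2, and 69.9, 76.2 and 92.05 CPM in dual-treated cells. It was lowest in BT-TPR2, intermediate in BT-TPR1 and highest in dual-treated cells, with changes of -0.76 ± 0.12 in BT-TPR1 and -1.67 ± 0.12 in BT-TPR2 (adjusted p = 0.000107 and 9.71e-09) and a difference between the pools (BT-TPR2 minus BT-TPR1 -0.90 ± 0.12, adjusted p = 0.000148). PIK3R3, another regulatory subunit, changed by 0.51 ± 0.08 in BT-TPR1 and 0.49 ± 0.08 in BT-TPR2 (adjusted p = 9.19e-05 and 0.000117). INPP4B and TSC1, both negative regulators in the pathway, fell, with changes of -0.49 and -0.75 for INPP4B and -0.46 and -0.36 for TSC1. These 2 calls ended under several alternatives, and the list had 1 shared fall with only the groups compared, when libraries were scaled by size alone, and without BT-TPR1 replicate 2 or 3, BT-TPR2 replicate 2 or dual-treated replicate 3.

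More ERK feedback inhibitors and ETS factors fell than rose, while some immediate early genes rose. Of 18 tested genes on a list of feedback inhibitors, ETS factors and other genes, 10 fell in both pools and 1, the phosphatase gene DUSP5, rose. The medians were -1.19 in BT-TPR1 and -0.67 in BT-TPR2. Against untreated cells, 9 of the 18 rose and 1 fell in dual-treated cells, where 6.39% and 6.02% of all tested genes did. In the pools, 1 rose and 5 fell in BT-TPR1, and 4 rose and 9 fell in BT-TPR2, each against untreated cells. SPRY1, an inhibitor of receptor tyrosine kinase signalling, stood at 5.35, 4.59 and 5.19 CPM in BT-TPR1, 5.41, 5.35 and 5.14 CPM in BT-TPR2, and 11.7, 12.4 and 13.6 CPM in dual-treated cells. The pools were alike and below every dual-treated library, with changes of -1.32 ± 0.13 in BT-TPR1 and -1.24 ± 0.13 in BT-TPR2 (adjusted p = 4.53e-07 and 5.29e-07). SPRY2 changed by -1.78 ± 0.18 in BT-TPR1 and -1.52 ± 0.17 in BT-TPR2 (adjusted p = 5.46e-07 and 1.63e-06), and the ETS factor gene ETV4 by -1.59 ± 0.24 in BT-TPR1 and -1.29 ± 0.23 in BT-TPR2 (adjusted p = 5.52e-05 and 0.000294). SPRY4, SPRED1, DUSP6, ETV1 and ETV5 also fell, as did EPHA4 and CCND1, which are neither feedback inhibitors nor ETS factors. CCND1 is also on the G1 and estrogen receptor lists.

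Of 20 tested immediate early genes, 4 rose in both pools and none fell in both. EGR1, a zinc finger factor induced through ERK, stood at 16.3, 21.3 and 14.3 CPM in BT-TPR1, 45.4, 28.98 and 44.2 CPM in BT-TPR2, and 2.58, 6.47 and 3.07 CPM in dual-treated cells. Both pools were above dual-treated cells, with changes of 2.09 ± 0.38 in BT-TPR1 and 3.28 ± 0.38 in BT-TPR2 (adjusted p = 0.000396 and 2.86e-06). Untreated cells had 30.4 ± 5.89 CPM (SD, n = 3). JUN, a subunit of AP-1, changed by 0.60 ± 0.15 in BT-TPR1 and 1.22 ± 0.15 in BT-TPR2 (adjusted p = 0.00626 and 6.42e-06). The calls of the other 2, NR4A1 and ATF3, ended when single libraries were left out, so that 2 of the 4 remained without dual-treated replicate 2 or replicate 3.

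Among the HER receptors, ERBB4 was the member that rose in both pools. It stood at 16.8, 18.7 and 16.3 CPM in BT-TPR1, 15.7, 12.6 and 15.3 CPM in BT-TPR2, and 8.52, 6.53 and 6.18 CPM in dual-treated cells, without overlap between pools and dual-treated cells, and changed by 1.29 ± 0.15 in BT-TPR1 and 1.04 ± 0.15 in BT-TPR2 (adjusted p = 5.09e-06 and 4.36e-05). ERBB2, the target of both antibodies, stood at 7176, 4580.0 and 6004 CPM in BT-TPR1, 9278, 5331 and 5877 CPM in BT-TPR2, and 6620.0, 5465 and 4388 CPM in dual-treated cells. Its libraries overlapped between groups, and its changes of 0.11 ± 0.24 in BT-TPR1 and 0.31 ± 0.24 in BT-TPR2 did not pass (adjusted p = 0.775 and 0.352), which does not show equal levels. After a GC correction it passed in BT-TPR2 (0.31, adjusted p = 0.0416). EGFR stood at 78.1, 64.2 and 94 CPM in BT-TPR1, 105, 96.8 and 101 CPM in BT-TPR2, and 69.3, 56.8 and 59.4 CPM in dual-treated cells. Its change passed in BT-TPR2 and missed the threshold in BT-TPR1, at 0.35 ± 0.13 in BT-TPR1 and 0.71 ± 0.13 in BT-TPR2 (adjusted p = 0.0526 and 0.000376), and with the replicate block it passed in BT-TPR1 (0.34, adjusted p = 0.015). The HER3 gene ERBB3, whose product has a weak kinase, had 491, 424 and 545 CPM in BT-TPR1, 628, 452 and 581 CPM in BT-TPR2, and 705, 582 and 625 CPM in dual-treated cells. It changed by -0.39 ± 0.12 in BT-TPR1 and -0.20 ± 0.12 in BT-TPR2 (adjusted p = 0.0219 and 0.222), and the call in BT-TPR1 ended under 5 alternatives (adjusted p = 0.0648 to 0.116), among them leaving out BT-TPR1 replicate 2 or dual-treated replicate 1. BTC, the HER ligand betacellulin, stood at 2.19, 1.26 and 2.12 CPM in BT-TPR1, 0.989, 1.26 and 1.63 CPM in BT-TPR2, and 3.90, 3.16 and 4.09 CPM in dual-treated cells, and fell in both pools, with changes of -0.999 ± 0.21 in BT-TPR1 and -1.53 ± 0.22 in BT-TPR2 (adjusted p = 0.00171 and 2.98e-05).

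Other receptor tyrosine kinases and their ligands fell in 9 of 24 tested cases in both pools and rose in 1, with medians of -0.34 in BT-TPR1 and -0.50 in BT-TPR2. GFRA1, the co-receptor of RET, stood at 14.4, 11.8 and 14.2 CPM in BT-TPR1, 3.72, 3.40 and 3.70 CPM in BT-TPR2, and 39.7, 27.6 and 36.1 CPM in dual-treated cells. It was lower in BT-TPR2 than in BT-TPR1 and highest in dual-treated cells, with changes of -1.36 ± 0.13 in BT-TPR1 and -3.26 ± 0.14 in BT-TPR2 (adjusted p = 2.94e-07 and 9.05e-12). FGFR2 changed by -1.47 ± 0.24 in BT-TPR1 and -1.42 ± 0.23 in BT-TPR2 (adjusted p = 0.000138 and 0.000127). On the Notch list, 2 of 17 tested genes fell in both, a share near the 9.93% of all tested genes, with changes of -2.08 ± 0.20 in BT-TPR1 and -1.86 ± 0.20 in BT-TPR2 for the ligand gene JAG1 and -2.16 ± 0.37 in BT-TPR1 and -4.48 ± 0.48 in BT-TPR2 for the coactivator gene MAML2, and 4 fell with the replicate block or the GC correction.

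**Figure D2:**
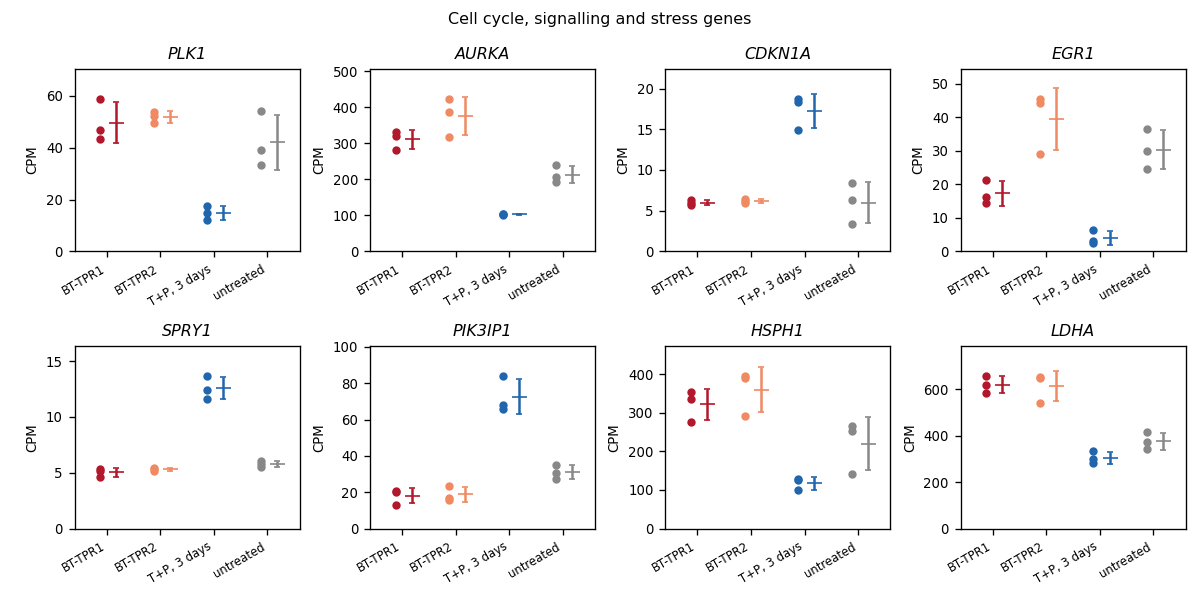
CPM in each library (points) with the mean and SD of 3 libraries (bars) for 8 genes of the cell cycle, signalling, stress and glycolysis in BT-TPR1, BT-TPR2, dual-treated cells and untreated cells. PLK1, AURKA, EGR1, HSPH1 and LDHA are higher in both pools than in dual-treated cells, and CDKN1A, SPRY1 and PIK3IP1 are lower, as with 6.32, 5.73 and 5.89 CPM of CDKN1A in BT-TPR1 against 18.3, 14.9 and 18.7 CPM in dual-treated cells.

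Heat shock genes held many shared rises. Of 15 tested genes on a list of heat shock and cell dissociation stress, 9 rose in both pools, among them the immediate early genes JUN and ATF3, and none fell, with medians of 0.70 in BT-TPR1 and 0.99 in BT-TPR2, and 14 rose with the replicate block. HSPH1, a nucleotide exchange factor of HSP70, stood at 277, 353 and 335 CPM in BT-TPR1, 292, 391 and 394 CPM in BT-TPR2, and 98.7, 125 and 128 CPM in dual-treated cells. Every pool library was above every dual-treated one, with changes of 1.46 ± 0.21 in BT-TPR1 and 1.62 ± 0.21 in BT-TPR2 (adjusted p = 5.01e-05 and 1.34e-05). HSPA8, the constitutive HSP70, stood at 2183, 2164 and 2317 CPM in BT-TPR1, 1848, 2160.0 and 2450.0 CPM in BT-TPR2, and 862, 1034 and 1155 CPM in dual-treated cells. Pools and dual-treated cells did not overlap, with changes of 1.13 ± 0.16 in BT-TPR1 and 1.08 ± 0.16 in BT-TPR2 (adjusted p = 4.69e-05 and 5.76e-05). DNAJA1, an HSP40 co-chaperone, changed by 1.30 ± 0.17 in BT-TPR1 and 1.45 ± 0.17 in BT-TPR2 (adjusted p = 1.67e-05 and 3.94e-06). The form TTCNNGAA of the heat shock element core reads the same on both strands. It stood in 2 of the 15 promoters (13.3%), those of DNAJA1 and HSPA8, against 7.84% of all promoters. The same units in the opposite order were not searched for, so these counts do not show which promoters lack the element.

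Several chaperones of the endoplasmic reticulum fell. Of 20 tested, 6 fell and 1 rose in both pools, and 11 fell with the replicate block. HSPA5, the lumenal HSP70 known as BiP, stood at 499, 471 and 613 CPM in BT-TPR1, 591, 491 and 639 CPM in BT-TPR2, and 1166, 955 and 1164 CPM in dual-treated cells. All 6 pool libraries were below the 3 dual-treated ones, with changes of -1.05 ± 0.14 in BT-TPR1 and -0.93 ± 0.14 in BT-TPR2 (adjusted p = 2.1e-05 and 5.98e-05). DNAJB9, a BiP cofactor, changed by -0.91 ± 0.14 in BT-TPR1 and -0.90 ± 0.14 in BT-TPR2 (adjusted p = 9.2e-05 and 8.57e-05). CALR, the lectin chaperone calreticulin, changed by -0.71 ± 0.15 in BT-TPR1 and -1.07 ± 0.16 in BT-TPR2 (adjusted p = 0.00223 and 3.55e-05). Against untreated cells these genes fell in 16 cases in BT-TPR1, 14 in BT-TPR2 and 3 in dual-treated cells. Of 23 tested ATF4 targets, 7 fell and 3 rose in both pools (7 rose with the replicate block). With only the groups compared, or without BT-TPR1 replicate 2 or dual-treated replicate 2 or 3, 1 rose, and 4 fell when libraries were scaled by size alone or without dual-treated replicate 2. ASNS, asparagine synthetase, changed by -1.01 ± 0.09 in BT-TPR1 and -0.87 ± 0.09 in BT-TPR2 (adjusted p = 2.2e-07 and 8.8e-07), and SLC7A11, the cystine transporter, by -1.19 ± 0.25 in BT-TPR1 and -1.28 ± 0.25 in BT-TPR2 (adjusted p = 0.00168 and 0.000721).

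Glycolysis and the nuclear-encoded respiratory chain held shared rises. Of 19 tested glycolysis genes, 6 rose in both pools and none fell in both, with medians of 0.38 in BT-TPR1 and 0.49 in BT-TPR2. LDHA, lactate dehydrogenase A, stood at 620.3, 584 and 656 CPM in BT-TPR1, 540.5, 651 and 656 CPM in BT-TPR2, and 334, 284 and 299 CPM in dual-treated cells. The pools overlapped with each other and lay well above dual-treated cells, with changes of 1.02 ± 0.11 in BT-TPR1 and 1.01 ± 0.11 in BT-TPR2 (adjusted p = 1.06e-06 and 9.08e-07). HK2, hexokinase 2, changed by 0.85 ± 0.10 in BT-TPR1 and 1.14 ± 0.10 in BT-TPR2 (adjusted p = 3.78e-06 and 7.62e-08). The count rose to 11 with the replicate block and fell to 2 without BT-TPR1 replicate 1 and to 3 without dual-treated replicate 3. Of 32 tested respiratory chain genes, 11 rose in both and none fell in both, against 21 with the replicate block and 7 without dual-treated replicate 2. SDHB, of complex II, changed by 0.57 ± 0.09 in BT-TPR1 and 0.72 ± 0.09 in BT-TPR2 (adjusted p = 9.65e-05 and 6e-06), and ATP5B, of ATP synthase, by 0.52 ± 0.13 in BT-TPR1 and 0.68 ± 0.13 in BT-TPR2 (adjusted p = 0.00756 and 0.00077). Mitochondrially encoded transcripts had 2 shared falls among 15, MT-CO2 and MT-RNR2, a share near the 9.93% of all tested genes. There were 9 without a filter and 4 with the replicate block, but 1 with the GC correction or without dual-treated replicate 3, and none without BT-TPR1 replicate 2, BT-TPR2 replicate 2 or 3 or dual-treated replicate 1. Cytosolic ribosomal protein genes rose in 4 of 50 tested cases, a share near that of all genes, in 10 with the replicate block, in 12 with the GC correction and in 2 without BT-TPR1 replicate 1 or 2, BT-TPR2 replicate 2 or dual-treated replicate 1. SLC2A1, the glucose transporter GLUT1, changed by -0.76 ± 0.21 in BT-TPR1 and -0.73 ± 0.21 in BT-TPR2 (adjusted p = 0.0115 and 0.0134), a call that ended in both pools without dual-treated replicate 1 (adjusted p = 0.0517 and 0.0546) and in 1 pool without BT-TPR1 replicate 2 or BT-TPR2 replicate 2 or 3 (adjusted p = 0.0598 to 0.0634).

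Of 25 tested cholesterol synthesis genes, 2 rose and 1 fell in both pools, a share of rises near the 8.46% of all tested genes. None rose without BT-TPR1 replicate 2 or dual-treated replicate 3, and 1 rose without BT-TPR1 replicate 3 or dual-treated replicate 1. With the replicate block or library size alone 4 rose, with the GC correction 5, and with both the correction and the block 6. Against untreated cells, 16 fell in BT-TPR1, 13 in BT-TPR2 and 17 in dual-treated cells. THRSP, a regulator of fatty acid synthesis, stood at 1.61, 1.76 and 1.41 CPM in BT-TPR1, 2.73, 2.09 and 2.07 CPM in BT-TPR2, and 0.495, 0.395 and 0.341 CPM in dual-treated cells. It was low in all groups but separate between pools and dual-treated cells, with changes of 1.95 ± 0.29 in BT-TPR1 and 2.47 ± 0.28 in BT-TPR2 (adjusted p = 5.21e-05 and 1.63e-06). ABCA1, the cholesterol exporter, stood at 0.747, 0.944 and 1.153 CPM in BT-TPR1, 1.10, 1.16 and 1.504 CPM in BT-TPR2, and 6.21, 5.54 and 8.52 CPM in dual-treated cells, and changed by -2.83 ± 0.23 in BT-TPR1 and -2.43 ± 0.22 in BT-TPR2 (adjusted p = 3.43e-08 and 8.49e-08). It was 1 of 5 ABC transporter genes of 15 tested that fell in both pools, a count that was 3 without dual-treated replicate 1. ABCC3, an organic anion exporter, changed by -1.12 ± 0.23 in BT-TPR1 and -0.97 ± 0.22 in BT-TPR2 (adjusted p = 0.00116 and 0.00304).

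Of 15 tested steroid receptors and luminal factors, 2 rose and 2 fell in both pools and PGR moved in opposite directions, against 8.46% and 9.93% of all tested genes that rose and fell in both. FOXA1, a pioneer factor of luminal cells (ENSG00000129514.5, chromosome 14, 37589984 to 37596059), stood at 321, 326 and 304 CPM in BT-TPR1, 323, 317 and 332 CPM in BT-TPR2, and 512, 515 and 527 CPM in dual-treated cells. The pools were alike and lower than dual-treated cells, with changes of -0.71 ± 0.09 in BT-TPR1 and -0.68 ± 0.09 in BT-TPR2 (adjusted p = 5.92e-06 and 7.6e-06). GATA3, another luminal factor, changed by -0.86 ± 0.11 in BT-TPR1 and -0.63 ± 0.11 in BT-TPR2 (adjusted p = 1.73e-05 and 0.000316). ELF5, a factor of alveolar cells, stood at 26.9, 28.6 and 29.7 CPM in BT-TPR1, 26.4, 25.3 and 30.8 CPM in BT-TPR2, and 14.4, 13.4 and 14.8 CPM in dual-treated cells. Every pool library was above every dual-treated one, with changes of 0.999 ± 0.11 in BT-TPR1 and 0.95 ± 0.11 in BT-TPR2 (adjusted p = 2.83e-06 and 3.57e-06). ESR1, the estrogen receptor, stood at 58.7, 57.9 and 55.8 CPM in BT-TPR1, 40.8, 48.3 and 48.01 CPM in BT-TPR2, and 51.3, 58.8 and 60.5 CPM in dual-treated cells. Its change did not pass in BT-TPR1 and its fall in BT-TPR2 ended under 6 alternatives, at 0.01 ± 0.10 in BT-TPR1 and -0.32 ± 0.10 in BT-TPR2 (adjusted p = 0.937 and 0.0255). Of 24 tested estrogen receptor targets, 5 fell and 2 rose in both pools, and 9 fell with the replicate block. STC2, a secreted glycoprotein hormone, stood at 104, 87.5 and 112 CPM in BT-TPR1, 152, 109 and 130.0 CPM in BT-TPR2, and 424, 381 and 440.4 CPM in dual-treated cells, with changes of -2.04 ± 0.12 in BT-TPR1 and -1.67 ± 0.12 in BT-TPR2 (adjusted p = 7.9e-10 and 9.3e-09).

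S100 genes and mammary secretory genes moved in both pools. Of 12 tested S100 genes, 6 rose in both and 1 fell, with medians of 0.79 in BT-TPR1 and 0.99 in BT-TPR2. S100P stood at 29.3, 24.5 and 23.6 CPM in BT-TPR1, 15.7, 13.9 and 11.8 CPM in BT-TPR2, and 4.51, 3.71 and 3.41 CPM in dual-treated cells. The groups were separate, with changes of 2.74 ± 0.25 in BT-TPR1 and 1.83 ± 0.25 in BT-TPR2 (adjusted p = 2.08e-07 and 1.63e-05). S100A6 stood at 354, 299 and 269 CPM in BT-TPR1, 248, 221 and 191 CPM in BT-TPR2, and 126, 114 and 100.2 CPM in dual-treated cells, and changed by 1.44 ± 0.19 in BT-TPR1 and 0.96 ± 0.19 in BT-TPR2 (adjusted p = 1.9e-05 and 0.000849). Of 11 tested mammary and apocrine secretory genes, 4 rose and 3 fell in both pools (5 fell with the replicate block). Of the 11, 5 differed between the pools, against 3.45% of all tested genes. ALOX15B, a lipoxygenase of apocrine cells, changed by 1.13 ± 0.10 in BT-TPR1 and 1.55 ± 0.10 in BT-TPR2 (adjusted p = 1.84e-07 and 2.15e-09).

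More matrix and adhesion genes fell than rose. Secreted matrix regulators fell in 6 of 18 tested cases in both pools and rose in 1, with medians of -1.12 in BT-TPR1 and -0.61 in BT-TPR2. ADAMTS1, a matrix protease, stood at 4.14, 2.77 and 4.42 CPM in BT-TPR1, 5.70, 4.65 and 5.95 CPM in BT-TPR2, and 24.8, 19.7 and 22.1 CPM in dual-treated cells. The pools were far below dual-treated cells, with changes of -2.55 ± 0.17 in BT-TPR1 and -2.03 ± 0.16 in BT-TPR2 (adjusted p = 1.97e-09 and 1.94e-08). Integrin, laminin and collagen genes fell in 7 of 27 cases and rose in 2, with 11 falls with the replicate block and 4 with library size alone or without dual-treated replicate 1 or 3. The laminin chain gene LAMB3 stood at 9.89, 6.54 and 8.01 CPM in BT-TPR1, 9.95, 5.54 and 4.89 CPM in BT-TPR2, and 2.31, 1.98 and 1.22 CPM in dual-treated cells, and changed by 2.16 ± 0.35 in BT-TPR1 and 1.89 ± 0.35 in BT-TPR2 (adjusted p = 0.000147 and 0.000447). The collagen IV chain gene COL4A5 changed by -1.74 ± 0.19 in BT-TPR1 and -1.44 ± 0.18 in BT-TPR2 (adjusted p = 1.94e-06 and 8.47e-06). Protocadherins and other neuronal adhesion genes fell in 5 of 18 cases (9 with the replicate block) and rose in 1. NLGN4X, a neuroligin, stood at 2.93, 2.71 and 2.88 CPM in BT-TPR1, 3.49, 3.16 and 3.45 CPM in BT-TPR2, and 16.3, 14.2 and 14.7 CPM in dual-treated cells, with changes of -2.40 ± 0.14 in BT-TPR1 and -2.16 ± 0.13 in BT-TPR2 (adjusted p = 3.37e-10 and 8.34e-10). Of 9 tested mesenchymal markers, VIM and the fibronectin gene FN1 (-0.85 and -0.79) fell, and S100A4 and the repressor gene SNAI1 (1.496 and 2.32) rose. The SNAI1 call in BT-TPR1 ended with limma and without any 1 of 7 libraries, those other than BT-TPR1 replicate 3 and BT-TPR2 replicate 1 (adjusted p = 0.0509 to 0.145).

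Interferon-stimulated genes fell in 7 of 30 tested cases in both pools, against 9.93% of all tested genes, and none rose in both. There were 4 falls without dual-treated replicate 3. The medians were -0.42 in BT-TPR1 and -0.06 in BT-TPR2. HERC6, an interferon-induced ubiquitin ligase family member, stood at 4.60, 5.10 and 5.64 CPM in BT-TPR1, 5.88, 7.02 and 8.02 CPM in BT-TPR2, and 10.7, 14.4 and 17.1 CPM in dual-treated cells. The groups did not overlap, with changes of -1.46 ± 0.19 in BT-TPR1 and -1.02 ± 0.19 in BT-TPR2 (adjusted p = 1.49e-05 and 0.000405). Lysosome and autophagy genes fell in 5 of 22 cases, and in 8 with the GC correction. CTSL, cathepsin L, changed by -1.10 ± 0.15 in BT-TPR1 and -0.75 ± 0.14 in BT-TPR2 (adjusted p = 1.79e-05 and 0.000624). Of 19 amino acid and zinc transporters, 5 fell and 1 rose in both, among them the zinc importer gene SLC39A8, which stood at 6.44, 7.74 and 9.68 CPM in BT-TPR1, 5.41, 5.63 and 5.89 CPM in BT-TPR2, and 28.2, 23.2 and 22.4 CPM in dual-treated cells and changed by -1.63 ± 0.16 in BT-TPR1 and -2.12 ± 0.17 in BT-TPR2 (adjusted p = 6.33e-07 and 2.06e-08).

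**Figure D3:**
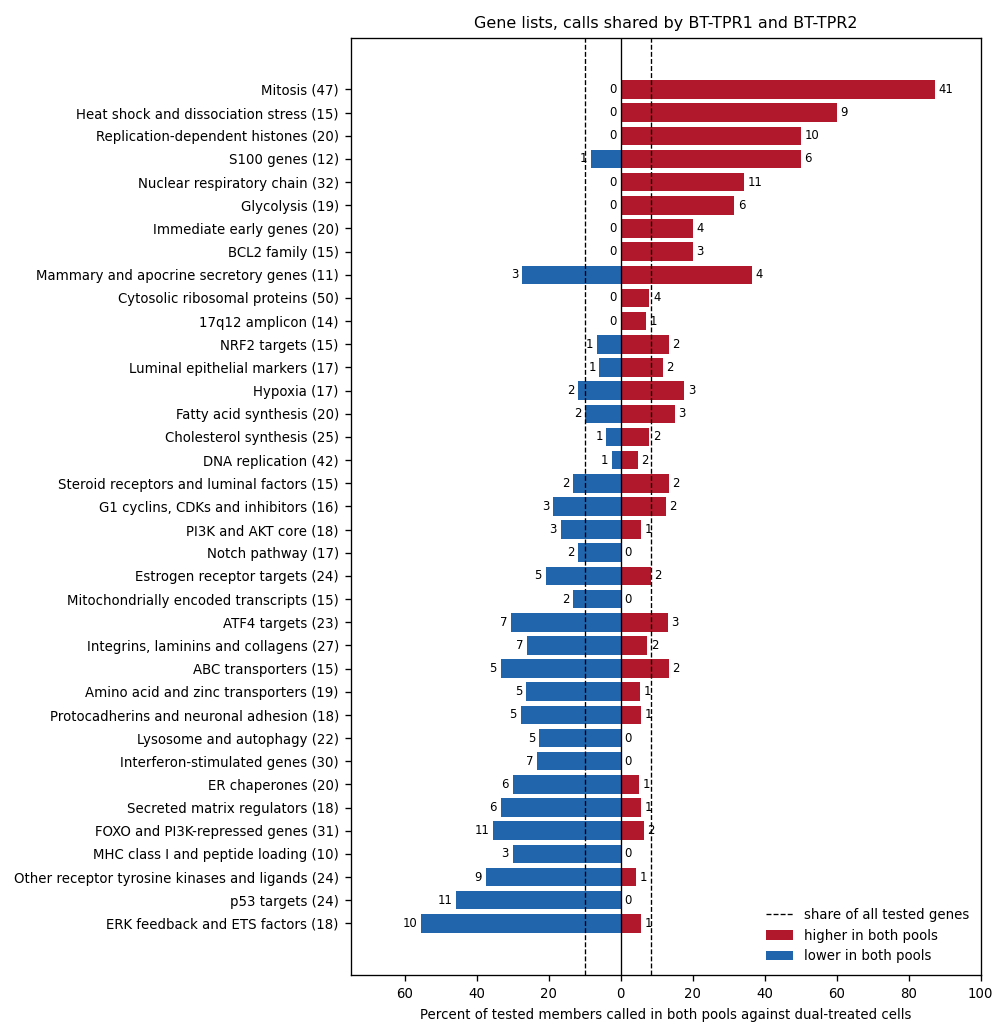
Share of tested members of each list called higher (right) or lower (left) in both pools against dual-treated cells, for lists with at least 10 tested members, which are given in parentheses. Numbers at the bars are counts of members, and dashed lines mark the share among all tested genes, 8.46% higher and 9.93% lower. Mitosis genes reach 41 of 47 on the right, and the list named for ERK feedback and ETS factors reaches 10 of 18 on the left.

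Genes on chromosome 14 fell more often than those elsewhere, a pattern that was looked for after results by chromosome had been seen. Of 586 tested genes there, 177 fell in both pools (30.2%) and 24 rose (4.10%). On the other 22 chromosomes with at least 100 tested genes, between 4.8% and 13.9% fell in both. The median change on chromosome 14 was -0.32 in BT-TPR1 and -0.34 in BT-TPR2, and the other chromosome medians lay between -0.17 and 0.15 in BT-TPR1 and between -0.13 and 0.18 in BT-TPR2. Against untreated cells the chromosome 14 medians were -0.34 in BT-TPR1, -0.33 in BT-TPR2 and 0.00 in dual-treated cells.

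All 6 pool libraries showed it. Taking the median of chromosome 14 genes minus that of all genes, on a log2 scale relative to the dual-treated mean, the values were -0.33, -0.29 and -0.29 in BT-TPR1, -0.36, -0.28 and -0.29 in BT-TPR2, and -0.02, -0.01 and 0.03 in dual-treated cells. The trastuzumab-resistant pools of the series stood at 0.07, 0.12 and 0.18 (BT-TR1) and at -0.07, -0.03 and -0.04 (BT-TR2). No library of the other groups came near those of the dual-resistant pools. The falls were spread along the chromosome. Median changes in 20-megabase windows from 20 megabases onward ran from -0.21 to -0.43 in BT-TPR1 and from -0.20 to -0.51 in BT-TPR2, with 70 of 167 genes down in both between 60 and 80 megabases. FOXA1 and the ER degradation gene SEL1L (-0.93 and -0.98) lie on this chromosome and fell, whereas the BCL2 family gene BCL2L2 (0.54 and 0.58) lies there and rose. DNA copy number was not analysed here. The share of genes down in both was 19.97% to 43.3% under the 18 alternatives that tested the filtered genes, against 7.08% to 15.7% of all genes.

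**Figure D4:**
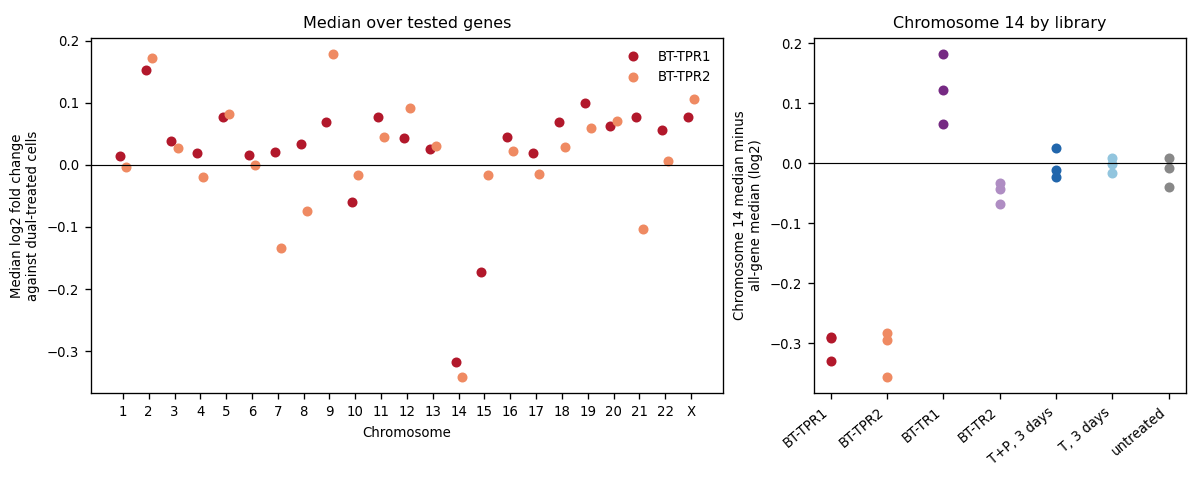
Left, the median log2 fold change over tested genes of each chromosome in BT-TPR1 and BT-TPR2 against dual-treated cells. Right, the median of chromosome 14 genes minus the median of all genes in each of the 21 libraries, in log2 units relative to the dual-treated mean (T, trastuzumab; T+P, trastuzumab plus pertuzumab). Chromosome 14 stands at -0.32 in BT-TPR1 and -0.34 in BT-TPR2, below every other chromosome, and the 6 libraries of the dual-resistant pools lie below all others.

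Gene biotypes were also examined after the fact, against 8.46% of all tested genes that rose and 9.93% that fell in both pools. Of 2606 tested processed pseudogenes, 220 rose in both pools (8.44%) and 37 fell (1.42%), with median changes of 0.22 in BT-TPR1 and 0.23 in BT-TPR2, so that their share of rises was near that of all genes and their share of falls below it. Of 750 antisense genes, 28 rose (3.73%) and 89 fell (11.9%), with medians of -0.33 and -0.27. Processed pseudogenes can take reads of their parent genes and strandedness is not stated, so these counts are uncertain for any single gene.

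Few genes (18) were called in opposite directions in the pools, although the direct test between the pools called 609 (2119 with the replicate block). The rule for opposite calls names 4 of the 18. PGR, the progesterone receptor, stood at 663, 784 and 673 CPM in BT-TPR1, 155, 196 and 183 CPM in BT-TPR2, and 365, 459.8 and 540.2 CPM in dual-treated cells. BT-TPR1 was above and BT-TPR2 below every dual-treated library, with changes of 0.64 ± 0.17 in BT-TPR1 and -1.35 ± 0.17 in BT-TPR2 (adjusted p = 0.00827 and 6.54e-06), and the pools differed (BT-TPR2 minus BT-TPR1 -1.99 ± 0.17, adjusted p = 8.3e-07). The rise in BT-TPR1 ended without BT-TPR1 replicate 2 or dual-treated replicate 1 (adjusted p = 0.0546 and 0.0566). SLC6A14, an amino acid importer, stood at 64.2, 72.3 and 80.3 CPM in BT-TPR1, 10.5, 10.8 and 12.8 CPM in BT-TPR2, and 39.4, 37.9 and 50.1 CPM in dual-treated cells. The 3 groups were again separate, with changes of 0.77 ± 0.16 in BT-TPR1 and -1.90 ± 0.17 in BT-TPR2 (adjusted p = 0.0019 and 1.39e-07) and a pool difference of -2.66 ± 0.18, adjusted p = 3.46e-08. CYP2B7P, a cytochrome P450 pseudogene whose reads may come from related genes, changed by 1.06 ± 0.16 in BT-TPR1 and -1.07 ± 0.17 in BT-TPR2. ARMCX3, a mitochondrial outer membrane protein, was the reverse case, lower in BT-TPR1 and higher in BT-TPR2, at 12.02, 11.6 and 14.7 CPM in BT-TPR1, 28.3, 24.3 and 32.8 CPM in BT-TPR2, and 17.6, 18.8 and 17.6 CPM in dual-treated cells. Its changes were -0.50 ± 0.15 in BT-TPR1 and 0.66 ± 0.14 in BT-TPR2 (adjusted p = 0.0172 and 0.0019), and the fall in BT-TPR1 ended with library size alone and without BT-TPR1 replicate 1 or 2 or dual-treated replicate 2 (adjusted p = 0.0548 to 0.128). Of the 18 opposite calls, 13 were higher in BT-TPR1 and 5 lower. The number was 7 without BT-TPR1 replicate 2 and 10 without dual-treated replicate 1 or 2.

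Other genes passed in a single pool and between the pools. STOM, the membrane protein stomatin, stood at 35.7, 43.5 and 49.8 CPM in BT-TPR1, 113, 88.8 and 115 CPM in BT-TPR2, and 128, 102 and 133 CPM in dual-treated cells. It was lower in BT-TPR1 than in the other groups, with a pool difference of 1.30 ± 0.15, adjusted p = 1.85e-05. BRINP2, a neural protein, stood at 87.6, 68.5 and 80.99 CPM in BT-TPR1, 35.9, 25.7 and 30.3 CPM in BT-TPR2, and 111, 90.01 and 95.99 CPM in dual-treated cells. It was lowest in BT-TPR2 and missed the threshold in BT-TPR1 (adjusted p = 0.0918), with a pool difference of -1.37 ± 0.14, adjusted p = 6.93e-06. With the replicate block it fell in BT-TPR1 too (-0.32, adjusted p = 0.00562). CST1, the secreted protease inhibitor cystatin SN, stood at 32.6, 25.6 and 37.4 CPM in BT-TPR1, 8.84, 5.44 and 9.09 CPM in BT-TPR2, and 15, 8.35 and 11.5 CPM in dual-treated cells, high in BT-TPR1, with a pool difference of -2.04 ± 0.26, adjusted p = 8.3e-05. In BT-TPR2 its change was -0.58 (adjusted p = 0.104), and it passed there under 5 alternatives, the replicate block among them (adjusted p = 0.00767).

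COL5A2, a collagen V chain, stood at 13.1, 12.5 and 11.02 CPM in BT-TPR1, 4.19, 4.09 and 3.51 CPM in BT-TPR2, and 5.50, 5.04 and 4.53 CPM in dual-treated cells. LEF1, a transcription factor of Wnt signalling, stood at 8.39, 7.93 and 9.61 CPM in BT-TPR1, 2.73, 3.40 and 4.01 CPM in BT-TPR2, and 3.63, 4.45 and 4.82 CPM in dual-treated cells. Both were higher in BT-TPR1 than in BT-TPR2 and dual-treated cells, with pool differences of -1.63 ± 0.15, adjusted p = 1.54e-06 for COL5A2 and -1.35 ± 0.20, adjusted p = 0.00039 for LEF1. ARHGEF19, a guanine nucleotide exchange factor, also rose in BT-TPR1, and its pool difference ended without BT-TPR1 replicate 1, BT-TPR2 replicate 2 or BT-TPR2 replicate 3.

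PCDH19, a protocadherin, stood at 5.63, 5.29 and 4.55 CPM in BT-TPR1, 14.5, 11.7 and 14.8 CPM in BT-TPR2, and 6.27, 5.78 and 5.70 CPM in dual-treated cells. CYP1B1, a cytochrome P450 induced through the aryl hydrocarbon receptor, stood at 15.9, 20.3 and 23.7 CPM in BT-TPR1, 44.6, 39.9 and 50.95 CPM in BT-TPR2, and 21, 16.02 and 22.3 CPM in dual-treated cells. Both were higher in BT-TPR2 than in BT-TPR1 and dual-treated cells, with pool differences of 1.40 ± 0.17, adjusted p = 3.76e-05 for PCDH19 and 1.18 ± 0.19, adjusted p = 0.000846 for CYP1B1. B4GALNT3, a glycosyltransferase, stood at 2.24, 1.57 and 1.54 CPM in BT-TPR1, 7.16, 4.74 and 5.08 CPM in BT-TPR2, and 8.90, 7.71 and 7.45 CPM in dual-treated cells, and was lowest in BT-TPR1. Its change in BT-TPR2 of -0.50 missed the threshold (adjusted p = 0.0599) but passed under 8 alternatives, the replicate block among them (-0.51, adjusted p = 0.00618).

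On the aryl hydrocarbon receptor list, 3 of 8 tested genes differed between the pools, against 3.45% of all tested genes. CYP1A1, its classical target, stood at 10.8, 8.05 and 11.3 CPM in BT-TPR1, 53.7, 32.2 and 45.3 CPM in BT-TPR2, and 97.7, 73.9 and 93.2 CPM in dual-treated cells. BT-TPR1 was lowest, BT-TPR2 intermediate and dual-treated cells highest, against 5.32 ± 0.543 CPM in untreated cells (SD, n = 3). The changes were -3.14 ± 0.18 in BT-TPR1 and -1.01 ± 0.16 in BT-TPR2 (adjusted p = 2.78e-10 and 9.42e-05), with a pool difference of 2.12 ± 0.17, adjusted p = 4.6e-07. PIP, the prolactin-induced protein of apocrine cells, stood at 7.70, 7.11 and 8.97 CPM in BT-TPR1, 2.33, 1.86 and 1.57 CPM in BT-TPR2, and 28.4, 18.4 and 19.6 CPM in dual-treated cells, with changes of -1.48 ± 0.23 in BT-TPR1 and -3.52 ± 0.26 in BT-TPR2 (adjusted p = 8.67e-05 and 9.21e-09) and a pool difference of -2.04 ± 0.26, adjusted p = 8.3e-05. PPARG, a nuclear receptor of lipid metabolism, stood at 2.53, 2.83 and 1.92 CPM in BT-TPR1, 0.291, 0.465 and 1.00 CPM in BT-TPR2, and 0, 0.148 and 0.146 CPM in dual-treated cells, and was higher in BT-TPR1 than in BT-TPR2 (-2.07 ± 0.36, adjusted p = 0.00191).

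**Figure D5:**
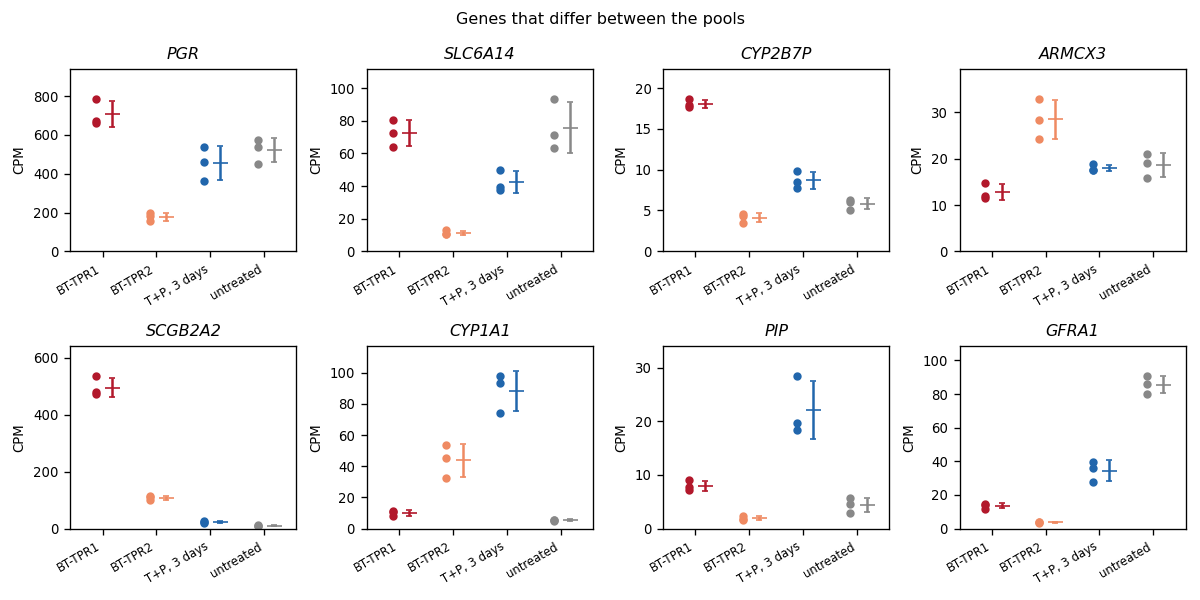
CPM in each library (points) with the mean and SD of 3 libraries (bars) for 8 genes that differ between the pools, in BT-TPR1, BT-TPR2, dual-treated cells and untreated cells. PGR, SLC6A14 and CYP2B7P lie above dual-treated cells in BT-TPR1 and below them in BT-TPR2, and ARMCX3 the reverse. PGR stood at 663, 784 and 673 CPM in BT-TPR1, 155, 196 and 183 CPM in BT-TPR2 and 365, 459.8 and 540.2 CPM in dual-treated cells.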

How the data were processed

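RNA-seq libraries of 9 samples were compared, 3 per group. The authors deposited raw read counts per gene, made with Bowtie2 and featureCounts on hg38, per the submitters' processing notes, and values on a log2-like scale that were deposited beside them and were used for 1 alternative. Versions, settings, strandedness and the library kit are not given in the sources used here. Bowtie2 does not split reads across introns.

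The analysis used R 4.3.3 and edgeR 4.0.16, with filterByExpr (minimum count 10, minimum total 15), TMM, 1 fit over all 21 libraries (14 residual degrees of freedom) and glmQLFTest for each pool against dual-treated cells and for BT-TPR2 against BT-TPR1, with Benjamini-Hochberg adjustment over 17650 genes. CPM are per normalized library size. The precision is set by the spread between libraries. The tests were checked on simulated data that held no effect of replicate number or GC content, so the check does not cover these effects.

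The members and the 48 gene lists were chosen with earlier results of these data known. Named genes are the 12 leading shared rises and 12 leading shared falls (called in both pools, at least 5 CPM on average, no overlap, ranked by the smaller change), up to 3 opposite calls each way, 5 pool differences each way, up to 4 genes per list called in both pools, and 9 genes reported always. Of these, 3 genes are not reported here and were not replaced. Not every other gene that the rule names is given, and the text also names other list members without values. The chromosome and biotype summaries were chosen after seeing the data.

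Same-numbered libraries deviated together from their group means in every pair (r = 0.52, 0.12 and 0.33 for BT-TPR1 with dual-treated cells, 0.62, 0.22 and 0.52 for BT-TPR2 with dual-treated cells, and 0.64, 0.37 and 0.40 between the pools), so counts with replicate number as a block are given. Replicate 2 of each pool correlated more strongly with dual-treated replicate 3 (r = 0.38 in BT-TPR1 and 0.33 in BT-TPR2) than with dual-treated replicate 2. Alternatives were no filter, a strict filter, RLE scaling, library size alone, DESeq2 1.42.0, limma 3.58.1 on the deposited values, only the groups compared, the block, a GC correction with and without the block, replicates 2 and 3 alone, a 2-fold threshold, and leaving out each of the 9 libraries.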

Additional observations from a re-analysis of the deposited data

Results flagged for a closer look

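Each difference here is a log2 value of BT-TPR2 minus BT-TPR1, singled out because the direct test between the pools called it at an adjusted p under 0.05 (edgeR's quasi-likelihood test over all tested genes, 3 libraries per pool). Among the leading shared rises, MUC5AC (-1.77) and SCGB2A2 (-2.19) were lower in BT-TPR2, while ASS1 (1.00) and ASS1P11 (1.03) were higher there. Of the leading shared falls, SHISA2 was higher in BT-TPR2 than in BT-TPR1 (1.03). SCGB2A2 stood at 109, 102 and 116 CPM in BT-TPR2 and 472, 535 and 479 CPM in BT-TPR1.

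The genes that moved in opposite directions against dual-treated cells also differed directly. CYP2B7P (-2.13), SLC6A14 (-2.66) and PGR (-1.99) were lower in BT-TPR2 than in BT-TPR1, and ARMCX3 (1.16) was higher. Genes called in a single pool that were higher in BT-TPR2 were B4GALNT3 (1.65), PCDH19 (1.40), STOM (1.30) and CYP1B1 (1.18). Those lower in BT-TPR2 were CST1 (-2.04), COL5A2 (-1.63), ARHGEF19 (-1.41), BRINP2 (-1.37) and LEF1 (-1.35). With replicate number as a block, B4GALNT3 and BRINP2 fell in both pools against dual-treated cells, and CST1 rose in BT-TPR1 and fell in BT-TPR2. Their causes were not tested.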

How the results depend on the processing

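With replicate number as a block, calls in BT-TPR1 numbered 4038 rises and 3749 falls (2098 and 2470 without it), in BT-TPR2 4107 and 3961 (2394 and 2570), shared rises 2836, shared falls 2778, opposite calls 56 and pool differences 2119. The block ended no call of a named gene against dual-treated cells and added 4. With the GC correction there were 3826 rises in BT-TPR1, 3849 in BT-TPR2, 2712 shared rises, 45 opposite calls and 1359 pool differences. With the GC correction and the block there were 5122 rises in BT-TPR1, 5017 rises and 3989 falls in BT-TPR2, 3733 shared rises, 2729 shared falls, 90 opposite calls and 2798 pool differences. At a 2-fold threshold the counts were 532 rises and 1037 falls in BT-TPR1, 663 and 1067 in BT-TPR2, 362 shared rises, 663 shared falls, 4 opposite calls and 231 pool differences. Without a filter 11 calls were opposite, and with only the groups compared 387 genes differed between the pools. Leaving out 1 library gave 1431 to 2211 rises and 1827 to 2576 falls in BT-TPR1, 1749 to 2371 and 2008 to 2677 in BT-TPR2, 1092 to 1492 shared rises, 1363 to 1763 shared falls, 7 to 19 opposite calls and 351 to 595 pool differences. Pool differences numbered 351 without BT-TPR1 replicate 1, 364 without its replicate 2 and 371 without BT-TPR2 replicate 3.

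Rises were 45.9% of calls in BT-TPR1 and 48.2% in BT-TPR2, against 60.5% and 55.2% with library size alone, which moved the median of all genes to 0.15 and 0.09, 56.7% and 54.3% with the GC correction, and 58.5% and 55.7% with the block added. Of 7028 values of named genes against dual-treated cells under alternatives other than the 2-fold threshold, 6712 kept direction and side of the threshold, 275 calls ended and 26 were gained. The values that changed sign passed no test in either form. In BT-TPR1, CYP1B1 was -0.0131 with the strict filter and -0.13 to 0.15 with 1 library left out. ESR1 was -0.0641 with replicates 2 and 3 alone, -0.0126 with the strict filter and -0.0474 to 0.0603 with 1 library left out, and ERBB2 was -0.0591 to 0.27. In BT-TPR2, ARHGEF19 was 0.0313 with library size alone and -0.40 to 0.23 with 1 library left out. The causes were not tested. Genes removed by the filter on low counts were not tested.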
